A study of Homo sapiens with 20 samples.

Results

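The cytosolic HSP40 J-domain genes taken here are 9 co-chaperone genes, chosen by name from the gene count table: DNAJA1, DNAJA2 and DNAJA4 of class A, DNAJB1, DNAJB2, DNAJB4 and DNAJB6 of class B, and DNAJC2 and DNAJC7 of class C. All 9 had a row among the 36601 genes of the table, and 8 passed the filter on low counts that left 12149 genes for testing. The exception was DNAJA4, which had 0 counts in all 20 libraries. The choice used no measured value, although earlier results of these data were known when it was made.

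J-domain proteins bring unfolded clients to an HSP70 and, through the J domain, make it hydrolyse ATP and close on the client. Class A proteins carry a zinc-binding region and a glycine and phenylalanine stretch, class B proteins only the stretch, and class C proteins share only the J domain and often serve in special places such as the ribosome. A few HSP40 genes are targets of heat shock factor 1 (HSF1), which binds repeats of a short unit, the heat shock element, when proteins unfold. Others are made at all times.

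The cells belong to MDA-MB-231, a human line of breast cancer origin. In all 5 groups they grew for 24 h at 37 °C after seeding at 30000 cells per well, and each RNA sample pooled 2 wells. Untreated cells had neither particles nor light. Particles alone means no laser but 4 h in 200 µl of medium that held nanoparticles at 0.1 mg/ml. The 3 laser groups had the same particles and then 10 min of 808 nm light held at 46, 50 or 54 °C. Each group had 4 samples. None of the 20 samples had light without particles, and no source used here gives the time between light and lysis. The study's title speaks of c-MYC regulation and immunotherapy.

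Reads came from the 3′ ends of mRNAs, and libraries held 2401180 to 7710977 counts. Group means were lowest at 46 °C (2872173) and highest at 54 °C (6769582). Levels are library-scaled counts (CPM, with TMM factors), as mean ± SD over the 4 samples of a group. A value after ± beside a log2 fold change is its standard error, and a call means an adjusted p under 0.05 in edgeR's quasi-likelihood test, adjusted over all tested genes. All 10 markers listed for MDA-MB-231 were measured, with group means of their summed level between 5478 CPM at 46 °C and 6107 CPM at 50 °C. All 8 lymphocyte markers were at 0 in untreated cells, with particles alone and at 46 °C, 6 at 50 °C and 7 at 54 °C. The 8 macrophage markers summed to group means of 8.83 to 15.3 CPM, the 8 fibroblast markers to 5.36 to 9.80 CPM and the 8 luminal breast markers to 47.3 to 73.7 CPM.

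The starts of the genes were searched for heat shock element letters, where HSF1 is known to bind, and the windows of the 5 genes that hold them are shown to set beside the values of the same genes. RefSeq windows of GRCh38.p14 run from 250 bases before a start to 50 bases from it, and the 9 genes have 15 such windows. A match is 2 inverted units, GAANNTTC or TTCNNGAA, which read the same on both strands, and overlapping matches each count. Matches were in 6 of the 15 windows, belonging to 5 of the 9 genes, while 13.5% of all 35116 windows hold one. For each of the 5 genes 1 window is shown, 5′ to 3′ on the strand of the gene, with the matches in capitals.
DNAJB1, chr19:14518348-14518647 (-): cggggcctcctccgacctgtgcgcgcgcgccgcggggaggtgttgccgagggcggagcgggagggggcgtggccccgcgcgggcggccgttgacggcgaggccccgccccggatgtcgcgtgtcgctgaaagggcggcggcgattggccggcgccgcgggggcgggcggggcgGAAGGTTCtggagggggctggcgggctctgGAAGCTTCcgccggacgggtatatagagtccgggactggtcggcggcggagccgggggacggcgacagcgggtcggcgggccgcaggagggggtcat
DNAJA1, chr9:33025023-33025322 (+): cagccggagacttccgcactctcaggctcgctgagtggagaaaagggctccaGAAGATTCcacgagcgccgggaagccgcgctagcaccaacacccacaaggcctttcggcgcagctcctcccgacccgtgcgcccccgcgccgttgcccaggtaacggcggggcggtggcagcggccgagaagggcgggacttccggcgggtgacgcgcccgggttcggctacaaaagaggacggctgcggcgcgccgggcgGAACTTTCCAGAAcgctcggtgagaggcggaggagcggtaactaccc
DNAJB4, chr1:78004689-78004988 (+): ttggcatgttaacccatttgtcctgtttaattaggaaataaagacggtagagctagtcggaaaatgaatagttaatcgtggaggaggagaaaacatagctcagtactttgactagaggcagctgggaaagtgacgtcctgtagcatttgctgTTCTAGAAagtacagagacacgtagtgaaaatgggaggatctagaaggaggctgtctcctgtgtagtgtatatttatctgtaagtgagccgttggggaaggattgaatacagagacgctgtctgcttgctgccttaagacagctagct
DNAJA4, chr15:78264312-78264611 (+): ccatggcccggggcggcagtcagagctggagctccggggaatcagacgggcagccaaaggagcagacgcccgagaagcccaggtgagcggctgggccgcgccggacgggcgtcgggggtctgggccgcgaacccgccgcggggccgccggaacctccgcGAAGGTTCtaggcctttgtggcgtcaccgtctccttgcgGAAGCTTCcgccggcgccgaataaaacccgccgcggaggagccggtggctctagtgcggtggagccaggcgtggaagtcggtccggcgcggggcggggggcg
DNAJB6, chr7:157336754-157337053 (+): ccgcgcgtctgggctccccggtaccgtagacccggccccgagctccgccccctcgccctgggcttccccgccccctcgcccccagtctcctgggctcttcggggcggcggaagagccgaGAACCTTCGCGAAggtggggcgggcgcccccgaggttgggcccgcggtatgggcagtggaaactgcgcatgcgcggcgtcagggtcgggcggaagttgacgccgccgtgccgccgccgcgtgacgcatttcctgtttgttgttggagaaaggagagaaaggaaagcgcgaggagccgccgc
DNAJB1 and DNAJA4 each show 2 separate matches, which 1.71% of all windows equal or exceed in number. DNAJB1 has them 77 and 47 bases before the start, and another of its 3 windows has 1 match. DNAJA4 has them 91 and 52 bases before the start. DNAJA1 has 1 match at 198 bases before the start and 2 that overlap just after it. In DNAJA1 and DNAJB6 the overlapping matches form 3 units in a row, and 0.49% of all windows hold 3 units in a row. DNAJB4 has the single match TTCNNGAA at 98 bases before its second start. None of these letters stood in the windows of DNAJA2, DNAJB2, DNAJC2 or DNAJC7. A CCAAT box (CCAAT or ATTGG) was in every window of DNAJB1 and in no window of another member, against 34.6% of all windows. The TATA box letters TATAAA were in the window of DNAJC2 alone among the members, 226 bases before the start, against 7.33% of all windows. Only these exact letters were searched, on the strand of the gene, so the tatata of the DNAJB1 window shown above was not counted. A match is a string of letters and not a measured binding site.

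**Figure D1:**
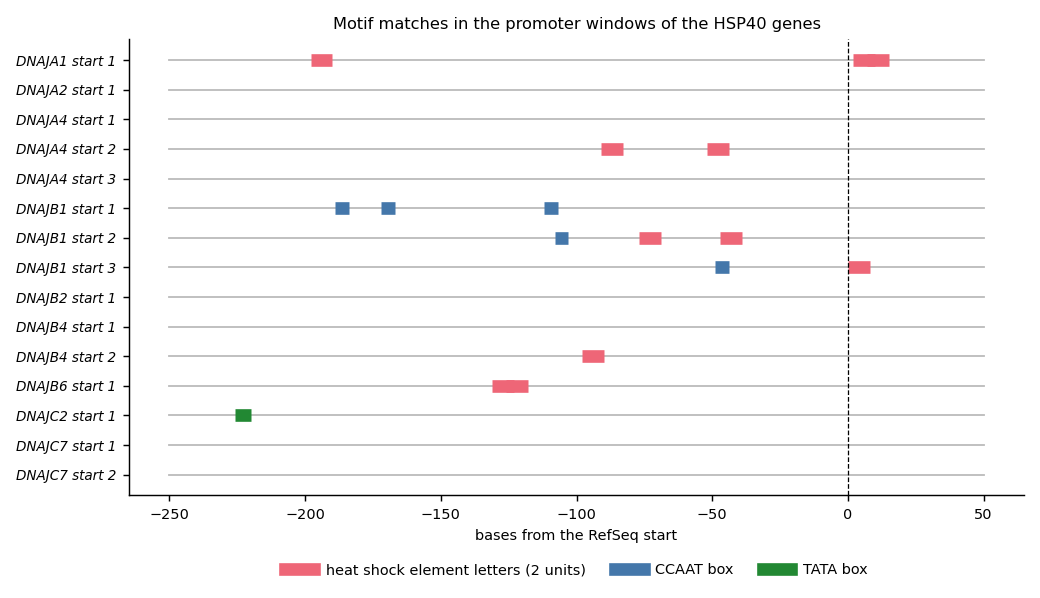
Position of motif matches in the 15 promoter windows of the 9 genes, in bases from each RefSeq start (dashed line). Heat shock element letters appear in 6 windows, and the CCAAT box in the 3 windows of DNAJB1.

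At 46 °C DNAJB1, the main heat-inducible HSP40 of the cytosol, stood at 12.3 times its level with particles alone, and at 50 and 54 °C its libraries overlapped those of the unlit cells. DNAJA1 and DNAJB4 also had their highest means at 46 °C, with smaller differences. In the fit reported, DNAJB4 and the 5 other measured members were called in no comparison.

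DNAJB1 had 1391, 1845, 1304 and 2042 CPM in replicates 1 to 4 at 46 °C, from counts of 3328 to 6183. With particles alone it had 142, 138, 120 and 135 CPM. The lowest library at 46 °C thus lay far above the highest of the other 16 libraries, an untreated one at 157 CPM. The means were 139 ± 19 CPM in untreated cells, 134 ± 9.77 with particles alone, 1645 ± 355 at 46 °C, then 129 ± 14.9 at 50 °C and 116 ± 16 at 54 °C. The order from high to low was 46 °C, untreated, particles alone, 50 °C and 54 °C, and the ranges of the last 4 overlap.

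**Figure D2:**
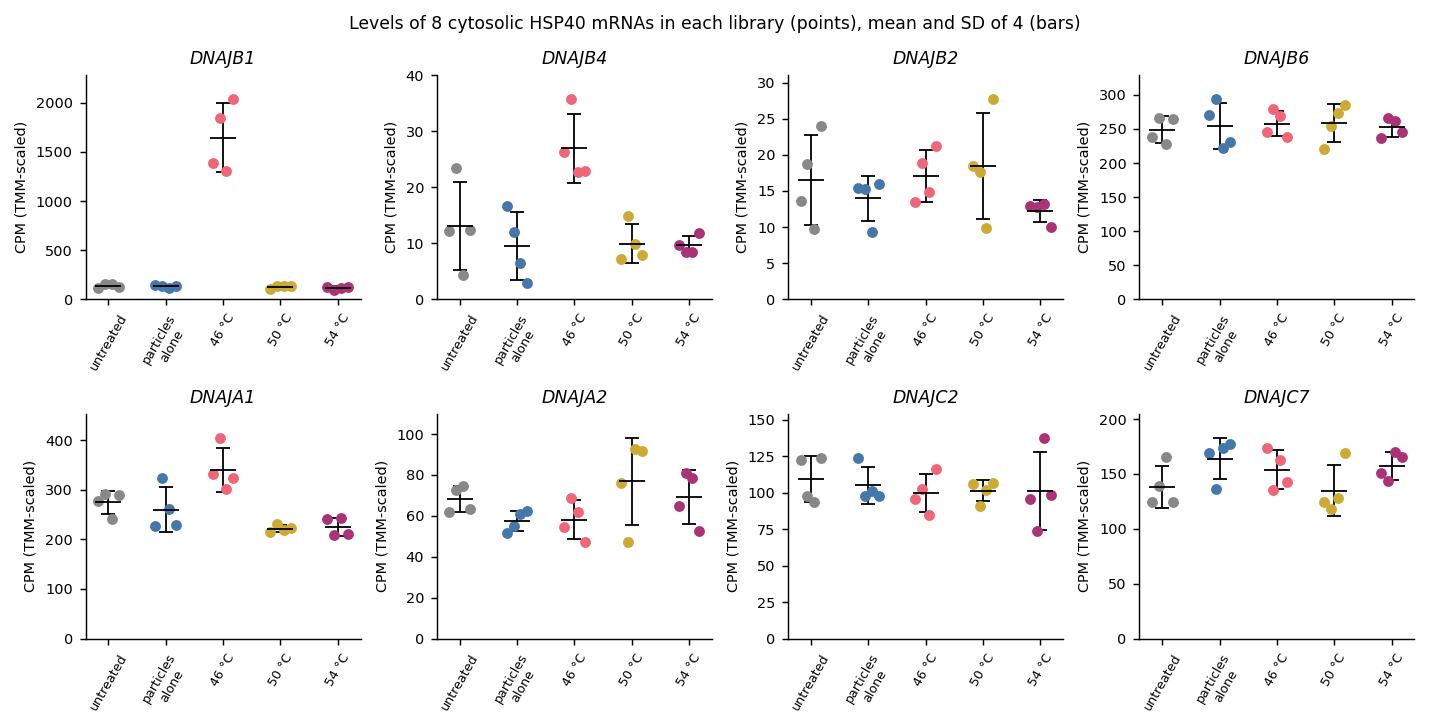
Level of each of the 8 tested genes in TMM-scaled CPM (vertical axis, from 0) in the 5 groups. Points are the 4 libraries of a group and bars the mean and SD. DNAJB1 lies between 1304 and 2042 CPM at 46 °C and at or below 157 CPM in every other library.

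The difference of DNAJB1 between 46 °C and particles alone was 3.62 ± 0.14 on the log2 scale (95% interval 3.33 to 3.91, adjusted p = 7.15e-27), a fold of 12.3 (10.1 to 15). By its p it was first among the 12149 genes tested, and by its fold change it was number 44. Within replicates 1 and 2 the difference was 3.53, and within replicates 3 and 4 it was 3.71. DNAJB1 differed by −3.68 ± 0.14 between 50 °C and 46 °C (adjusted p = 3.78e-27) and by −3.82 ± 0.14 between 54 °C and 46 °C (adjusted p = 6.47e-28). Against particles alone it differed by −0.06 at 50 °C (interval −0.32 to 0.21, adjusted p = 0.936) and by −0.20 at 54 °C (interval −0.47 to 0.06, adjusted p = 0.959). The upper ends of these intervals are folds of 1.16 at 50 °C and 1.04 at 54 °C. The laser comparisons share the same 4 samples with particles alone.

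DNAJA1, a farnesylated class A protein that works with HSPA8 on many clients, had 333, 405, 302 and 324 CPM at 46 °C. It had 226, 323, 261 and 228 CPM with particles alone, so that the groups overlap in 1 library of the unlit cells. The difference was 0.39 ± 0.13 (interval 0.14 to 0.65), and with an adjusted p of 0.150 it was not called. It was called in edgeR fits with a replicate block (adjusted p = 0.0358) and with a term for replicates 3 and 4 (adjusted p = 0.0382). At 50 °C the 4 libraries lay close together at 215, 230, 218 and 224 CPM, and at 54 °C they had 240, 208, 243 and 210 CPM. Both sets lie below every library at 46 °C.

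DNAJA1 fell by 0.62 ± 0.13 at 50 °C against 46 °C (adjusted p = 0.00264), and the fit gave −0.60 ± 0.13 at 54 °C against 46 °C (adjusted p = 0.00591). Neither fall was called within replicates 3 and 4, where the values were −0.50 (adjusted p = 0.187) at 50 °C and −0.46 (adjusted p = 0.370) at 54 °C. Without replicate 2 at 46 °C the value at 54 °C was −0.50 (adjusted p = 0.0877). Against particles alone DNAJA1 differed by −0.23 at 50 °C (adjusted p = 0.537) and by −0.20 at 54 °C (adjusted p = 0.950). Its group means were 275 ± 22.9 CPM in untreated cells, 259 ± 45.2 with particles alone, 341 ± 44.3 at 46 °C, then 222 ± 6.51 at 50 °C and 225 ± 18.7 at 54 °C.

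DNAJB4, a close relative of DNAJB1 also called HLJ1, had 26.3, 35.8, 22.7 and 22.9 CPM at 46 °C. With particles alone it had 16.6, 12, 6.44 and 2.95 CPM, from counts of 12 to 65. The groups do not overlap, yet the spread at these counts was wide and the difference of 1.49 ± 0.43 (interval 0.62 to 2.36) was not called at an adjusted p of 0.0869. It was called by limma-voom (1.72, adjusted p = 0.0471) and without replicate 1 of particles alone (1.90, adjusted p = 0.0341). Also, edgeR called it with a replicate block (adjusted p = 0.0238) and with a term for replicates 3 and 4 (adjusted p = 0.0177). At 50 °C it had 7.10, 14.9, 9.82 and 7.86 CPM, and at 54 °C 9.74, 8.50, 8.50 and 11.8 CPM, all below the libraries at 46 °C. The differences from 46 °C were −1.44 ± 0.43 at 50 °C (adjusted p = 0.0901) and −1.48 ± 0.43 at 54 °C (adjusted p = 0.109). They were called when each pair of groups was fitted alone, with an adjusted p of 0.0250 at 50 °C and 0.0212 at 54 °C. Untreated cells ranged from 4.35 to 23.3 CPM, and their highest library lies within the range at 46 °C.

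As with DNAJB4 in the fit reported, the remaining class B members were called in no comparison. DNAJB6, which holds back the clumping of polyglutamine proteins, averaged 249 ± 19.4 CPM in untreated cells, 255 ± 34.1 with particles alone, 258 ± 18.7 at 46 °C, then 258 ± 27.7 at 50 °C and 252 ± 14.2 at 54 °C. Its difference at 46 °C from particles alone was 0.02 with an interval of −0.23 to 0.27, and its window is the one shown above with 3 heat shock units in a row before the start. DNAJB2, a member rich in neurons that hands clients to the proteasome, averaged between 12.2 CPM at 54 °C and 18.4 CPM at 50 °C. At 54 °C its values of 9.99 to 13.2 CPM lay below the 13.5 to 21.3 CPM at 46 °C without overlap, and the difference of −0.48 ± 0.36 was not called (adjusted p = 0.791).

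DNAJA2, the class A relative of DNAJA1 that refolds proteins with HSPA8, had 76.0, 47.2, 92.9 and 91.5 CPM at 50 °C. With particles alone it had 51.7, 55.1, 60.8 and 62.2 CPM, so that 3 of the 4 libraries at 50 °C lie above these and 1 lies below them. The difference was 0.42 ± 0.20 (interval 0.03 to 0.81, adjusted p = 0.388). At 46 °C it averaged 58.2 ± 9.34 CPM against 57.4 ± 4.88 CPM with particles alone.

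DNAJA4, the third class A gene, gave no count at any temperature among 83838683 counts. A count of 0 allows up to 3 counts, or 0.380 to 1.18 CPM by library and 0.0360 CPM over all libraries, for counting error only. Its last 4362 bases run over WDR61 on the other strand in GENCODE v29, and no source used here gives the strand setting of the counting.

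The class C members were DNAJC2 and DNAJC7. DNAJC2, which with HSPA14 forms the ribosome-associated complex, averaged 110 ± 16 CPM in untreated cells, 105 ± 12.6 with particles alone, 99.9 ± 13.1 at 46 °C, then 101 ± 7.19 at 50 °C and 101 ± 26.6 at 54 °C. At 46 °C it differed from particles alone by −0.07 (interval −0.41 to 0.26). DNAJC7, a tetratricopeptide protein that binds both HSP70 and HSP90, had 125, 118, 128 and 169 CPM at 50 °C, against 169, 136, 174 and 177 CPM with particles alone. The groups overlap, and the difference was −0.28 ± 0.15 (adjusted p = 0.465). At 46 °C DNAJC7 differed from particles alone by −0.09 (interval −0.38 to 0.20).

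**Figure D3:**
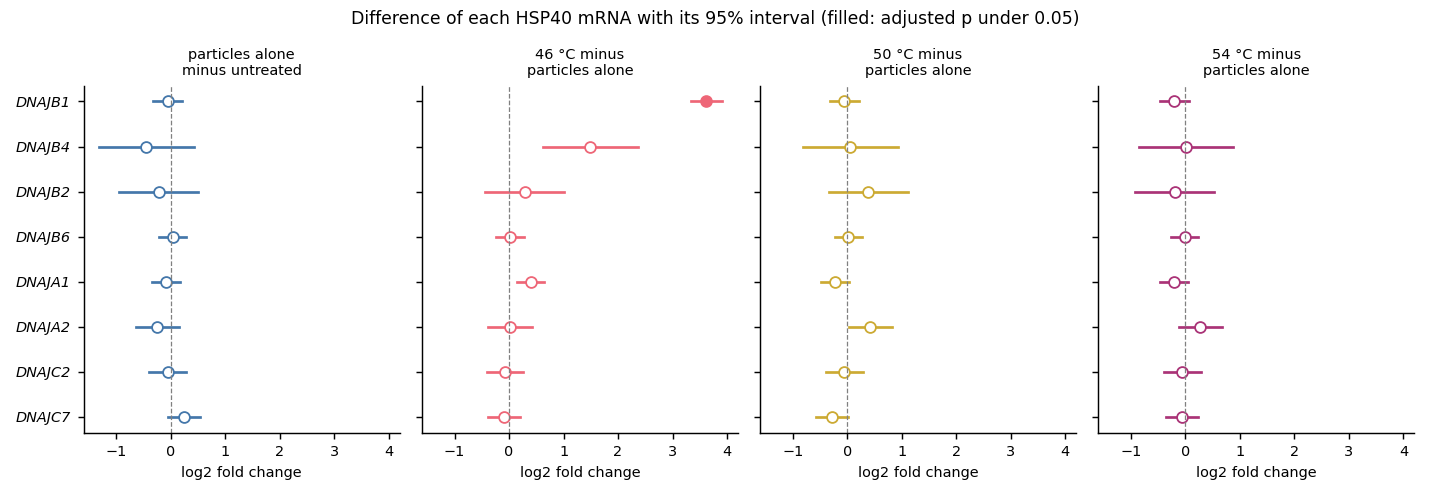
Log2 fold change (horizontal axis) of each tested gene with its 95% interval, for particles alone minus untreated cells and for each temperature minus particles alone. Filled points are called. DNAJB1 at 46 °C, at 3.62, is the filled point, and DNAJB4 and DNAJA1 at 46 °C and DNAJA2 at 50 °C have intervals above 0 without a call.

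By count, 1 of the 8 tested members was called higher and 0 lower at 46 °C against particles alone, where 0.617% of all tested genes were called higher and 0.346% lower. At 50 °C against particles alone 0 were called, where 1.22% of all genes were. At 54 °C it was 0 as well, where 0.123% of all genes were. At an unadjusted p under 0.05, edgeR had 1 member at 50 °C (DNAJA2) with 11.4% of all genes, and 0 at 54 °C with 5.75% of all genes. DESeq2 called 0 at both temperatures and had 2 below that p at 50 °C (DNAJA2 and DNAJC7) and 0 at 54 °C, and limma-voom had 0 throughout.

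Between temperatures, 2 members (DNAJB1 and DNAJA1) were called lower at 50 °C than at 46 °C, where 0.609% of all genes were, and 0 higher, where 0.584% were. The same pair was called lower at 54 °C than at 46 °C, where 0.395% were, and 0 higher, where 0.239% were. At 54 °C against 50 °C 0 members were called by edgeR, DESeq2 or limma-voom, where edgeR called 0.198% of all genes. There 0 members had an unadjusted p under 0.05 by any of the 3, where edgeR had 6.02% of all genes. Particles alone against untreated cells gave 0 called members by all 3 tools, where edgeR called 0% of all genes, and 0 members with an unadjusted p under 0.05, where edgeR had 3.94% of all genes.

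Values did not overlap for 2 members at 46 °C (DNAJB1 and DNAJB4, both above particles alone), where 3.69% of all genes lay above. They lay below 46 °C without overlap for 3 members at 50 °C (DNAJA1, DNAJB1 and DNAJB4), where 3.41% of all genes did. At 54 °C they did so for these 3 and DNAJB2, where 3.05% of all genes did. The median log2 fold change of the 8 members at 46 °C against particles alone was 0.15, against 0.01 over all tested genes. It was −0.02 at 50 °C and −0.06 at 54 °C, where all tested genes had 0.02 at 50 °C and 0.01 at 54 °C.

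The reads of the 9 genes together came to 1009 ± 47.4 CPM in untreated cells, 998 ± 57.5 with particles alone, 2600 ± 375 at 46 °C, then 950 ± 77.8 at 50 °C and 944 ± 62.5 at 54 °C. DNAJB1 made up 62.8 ± 4.76% of these reads at 46 °C, against 13.4 ± 0.84% with particles alone. It made up 13.8% in untreated cells, 13.5% at 50 °C and 12.3% at 54 °C. Without DNAJB1 the sum was 955 ± 61.5 CPM at 46 °C, against 864 ± 52.5 CPM with particles alone. These are shares of 3′ reads and are not divided by length. In bulk RNA, fewer cells and less RNA per cell cannot be told apart, and CPM shows neither.

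**Figure D4:**
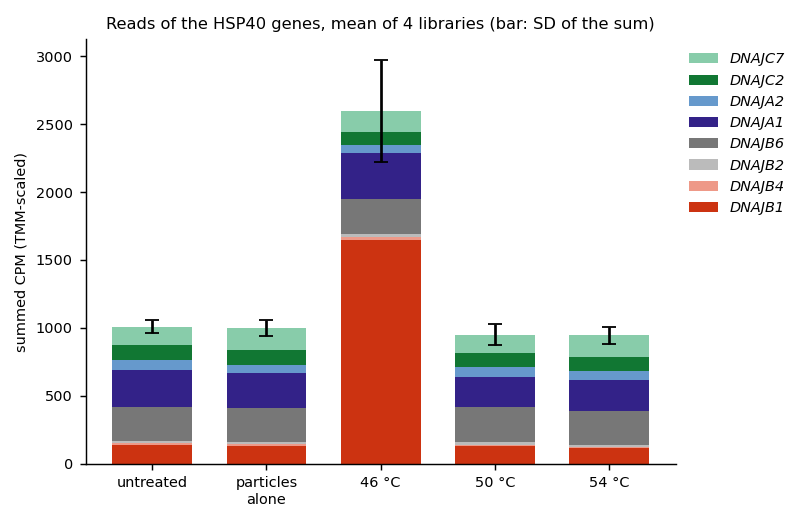
Summed TMM-scaled CPM of the HSP40 genes (vertical axis, from 0) in each group, stacked by gene as means of 4 libraries, with the SD of the sum. The sum is 2600 CPM at 46 °C, most of it from DNAJB1, and between 944 and 1009 CPM in the other groups.

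J-domain genes outside the 9 were set beside them by location. Across all tested genes, 0.617% were called higher and 0.346% lower at 46 °C against particles alone. Of 12 other measured J-domain genes of the cytosol or nucleus, 0 were called there (median −0.02). The same held for 12 of the endoplasmic reticulum (median −0.10) and 7 of mitochondria (median 0.26), and edgeR called 0 of these 31 genes in any other comparison. The shares of all genes called in those comparisons are given above. At 46 °C edgeR had 3 of the 31 at an unadjusted p under 0.05, where it had 1336 of all 12149 genes, and DESeq2 and limma-voom also called 0 there. DESeq2, run without that filter, called DNAJC15, a mitochondrial J-domain gene, between 50 and 46 °C and between 54 and 50 °C.

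Among the HSP70s of the cytosol, which these proteins serve, 3 of 7 measured entries were called higher at 46 °C than with particles alone and 0 lower, with a median of 1.52. Of all tested genes, 0.617% were called higher there and 0.346% lower. HSPA1A, the inducible HSP70, averaged 1760 ± 325 CPM at 46 °C against 28.6 ± 7.94 CPM with particles alone (5.93 ± 0.31, adjusted p = 1.48e-09). Its near-identical copy HSPA1B averaged 881 ± 187 CPM against 34.4 ± 7.56 CPM (4.69 ± 0.25, adjusted p = 5.09e-12), and counts of this pair are uncertain because reads can fit both. HSPA6, a strictly inducible HSP70, averaged 1142 ± 405 CPM against 0.850 ± 1.08 CPM (adjusted p = 3.55e-06). Its mean was 1.84 CPM or less in every group but 46 °C. It thus passed the filter on low counts through the 46 °C libraries, and its calls are no separate support. The constitutive partner HSPA8 averaged 1301 ± 126 CPM at 46 °C, against 1303 ± 292 CPM with particles alone (adjusted p = 0.998). The partner of DNAJC2, HSPA14, has 2 identifiers in the table, with differences of 0.18 ± 0.22 and −0.37 ± 0.28 and no call.

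Among 14 nucleotide exchange factors and cofactors of HSP70, 2 were called higher at 46 °C and 0 lower, where 0.617% and 0.346% of all genes were. HSPH1, the HSP110 that works with DNAJB1 and HSP70 to take aggregates apart, averaged 723 ± 133 CPM at 46 °C, against 192 ± 9.43 CPM with particles alone (1.91 ± 0.15, adjusted p = 3.21e-13). BAG3, an exchange factor that steers clients to autophagy, differed by 1.10 ± 0.22 (adjusted p = 0.00151). Of 9 heat shock factors, HSP90s and related genes, 4 were called higher and 0 lower, against the same shares of all genes. The 3 with the smallest p were HSP90AA1 (0.83 ± 0.08), HSPD1 (0.62 ± 0.12) and HSPB1 (0.66 ± 0.13). HSF1 mRNA averaged 62.0 ± 16.8 CPM at 46 °C, against 59.3 ± 17.6 CPM with particles alone (adjusted p = 0.966).

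Of the 30 measured entries of these 3 lists, 0 were called at 50 or 54 °C against particles alone by edgeR, DESeq2 or limma-voom. DESeq2, run without the filter, had 31 entries. Of all genes, edgeR called 1.22% at 50 °C and 0.123% at 54 °C. Each tool had 3 at 50 °C and 1 at 54 °C at an unadjusted p under 0.05. At that p edgeR had 11.4% of all genes at 50 °C and 5.75% at 54 °C. At 50 °C HSPA1A averaged 21.0 ± 8.90 CPM, HSPA1B 28.5 ± 7.56 CPM and HSPH1 202 ± 25.3 CPM. At 54 °C HSPA1A averaged 23.4 ± 5.23 CPM, HSPA1B 27.6 ± 9.89 CPM and HSPH1 205 ± 23.4 CPM. Against 46 °C, edgeR called 0.609% of all genes lower at 50 °C and 0.395% at 54 °C. There 3 HSP70s, HSPA6 among them, were called lower at both temperatures, as were 2 cofactors. So were 2 genes of the HSP90 list at 50 °C and 4 at 54 °C by edgeR, while DESeq2 called 6 at 50 °C and 4 at 54 °C, and limma-voom called 3 at 50 °C and 4 at 54 °C. DESeq2 also called 3 cofactors at 50 °C against 46 °C.

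**Figure D5:**
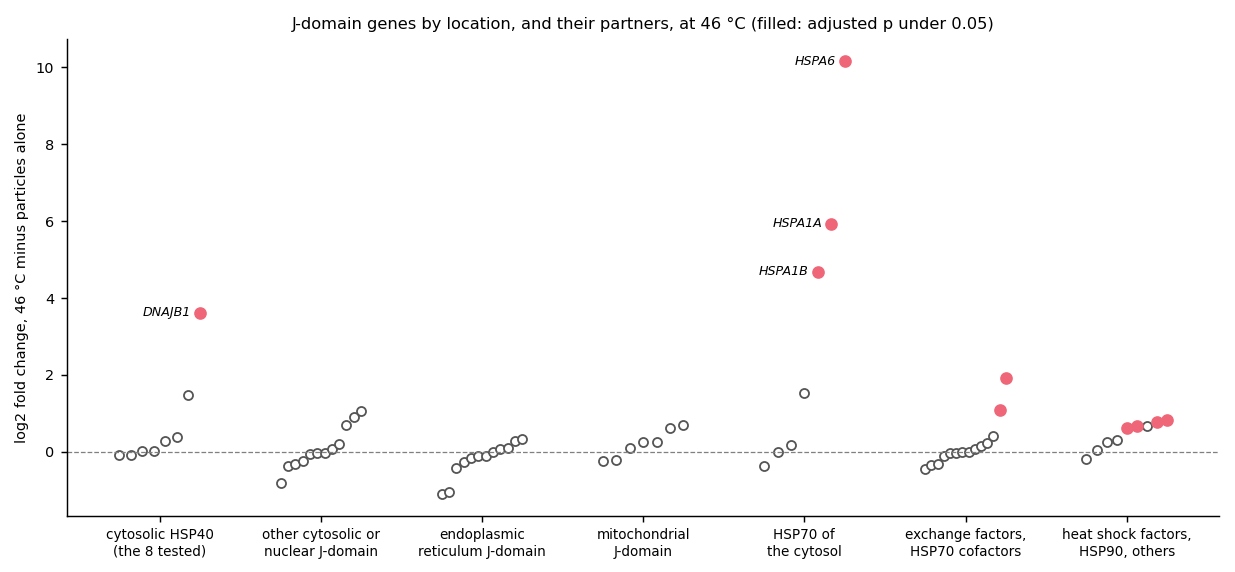
Log2 fold change at 46 °C minus particles alone (vertical axis) of the tested HSP40 genes, of other J-domain genes by location, and of their HSP70 and HSP90 partners; each point is a gene and filled points are called. DNAJB1 at 3.62 is the one called J-domain gene, next to 3 called HSP70 genes, where 0.617% of all tested genes were called higher.

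The genes most like DNAJB1 over the 20 libraries, among 8180 with a mean of at least 10 CPM, were HSPA1A (Pearson r = 0.987), IER5 (0.984), HSPA1B (0.981), HSPA6 (0.970) and HSPH1 (0.961) in log2 CPM. Without the 4 libraries at 46 °C these r values lay between 0.108 and 0.421 over 16 libraries, the highest being that of HSPA6. HSPA6 averaged 1.84 CPM or less in every other group, so it reached a mean of 10 CPM through the 46 °C libraries alone. For DNAJA1 the most similar genes were HSP90AA1 (0.808), ENY2 (0.795) and CACYBP (0.789), with 0.530, 0.611 and 0.413 without 46 °C. For DNAJC2 they were AAGAB (0.687), CTF1 (0.687) and RUNDC1 (0.640), with 0.714, 0.706 and 0.616. The libraries share groups and depth, and the r values are descriptions.

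3 lists outside the chaperones were set beside the HSP40 genes. The 13 mitochondrially encoded mRNAs summed to 47208 CPM at 46 °C, against 118503 CPM with particles alone, and 9 of them were called lower. At 50 °C they summed to 183408 CPM, with 6 called higher. Of 8 measured long noncoding RNAs, listed to watch RNA quality, 3 were called higher at 46 °C than with particles alone and 0 lower. Their median log2 fold change there was 0.02, and 4 of the 8 lay above 0. At 50 °C 3 were called higher and 1 lower. The list summed to 4069 CPM at 46 °C, 4858 at 50 °C and 5031 at 54 °C. With particles alone it summed to 2247 CPM. Of 11 measured histone genes, which depend on DNA replication, 0 were called at 46 °C and 2 were called higher at 50 °C against particles alone. The part of these 3 lists in the values of the HSP40 genes was not tested. Scaling by total counts in place of TMM moves the median of all genes by −0.12 at 50 °C against particles alone and by −0.17 at 50 °C against 46 °C. The share of calls that were higher then changes to 18.1% in place of 43.2% at 50 °C against particles alone, and to 11% in place of 49.0% at 50 °C against 46 °C. It becomes 74.2% in place of 64.1% at 46 °C against particles alone, 57.9% in place of 29.2% at 54 °C against 50 °C, and 20.6% in place of 37.7% at 54 °C against 46 °C. Under it the calls of DNAJB1 and DNAJA1 were kept, and DNAJB4 was called lower at 50 °C than at 46 °C (adjusted p = 0.0219, in place of 0.0901).

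By position on GRCh38 (GENCODE v29), DNAJB1 lies on chromosome 19 at 14514770 to 14529770 on the minus strand. It overlaps TECR on the plus strand, but its own 3′ end, where the kit reads, lies outside TECR. DNAJA1 lies on chromosome 9 at 33025211 to 33039907 with no overlapping gene. It has 6 processed pseudogenes in that annotation and DNAJB1 has 1, none of them with a row in the table, so that reads of these copies could be counted or lost. The 3′ end of DNAJB4 (chromosome 1, 77979175 to 78017964) lies within GIPC2 on the same strand, and GIPC2 had 0 counts in all libraries. The 3′ ends of DNAJC2 and DNAJC7 lie within PMPCB and CNP on the other strand. None of TECR, PMPCB, CNP and WDR61 was called in any of the 7 comparisons.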

How the data were processed

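RNA of 20 samples was read from its 3′ ends with QuantSeq, per the labels' protocols. The authors deposited estimated counts per gene; STAR, Salmon and GRCh38 are named in the submitters' processing notes. No source used here gives their versions, the annotation, the strand setting or any use of molecular identifiers. In each library 1.74% to 2.90% of values were fractions, and these were rounded for testing.

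The test was edgeR 4.0.16 (R 4.3.3), a quasi-likelihood fit with robust spread, TMM scaling, 1 mean for each of 5 groups and all 20 samples. A filter (count of at least 10 in enough samples, total of at least 15) kept 12149 genes with 99.67% or more of each library. Adjustment was Benjamini-Hochberg over these genes. The 7 comparisons were each temperature against particles alone, particles alone against untreated cells, and each temperature against each lower one. The tests were checked on simulated data with the same spread for every gene and no replicate effect. That check does not cover a spread that differs between genes or an effect of replicate. Alternatives were RLE and total-count scaling, no filter, unrounded counts, DESeq2 1.42.0, limma-voom (limma 3.58.1), a fit of the compared groups only, a replicate block, a term for replicates 3 and 4, fits within replicates 1 and 2 and within 3 and 4, and each sample left out. For log2 CPM the prior count was 2.

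All 9 members are named. For other lists the text gives counts and up to 3 called genes of smallest p, plus HSPA1A, HSPA1B, HSPA8, HSPA14, HSPH1 and HSF1. For likeness it names 5, 3 and 3 genes. The members and lists were chosen with earlier results of these data known, as was the division of the replicate numbers. DNAJC15 was named after its values were seen, and the values of 1 listed gene are not reported here. Whether replicates were separate cultures is not in the labels, so the p-values describe the spread among these samples, and this may be technical. Within groups, libraries correlated at 0.891 to 0.942 across genes and differed beyond sampling noise. Floors from counts cover counting error only, since PCR copies are not independent molecules.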

Additional observations from a re-analysis of the deposited data

Results flagged for a closer look

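In 3 of the 40 sets of 4 libraries examined (8 genes in 5 groups), 1 library lay far from the other 3, where chance gives about 1 in 20. DNAJB2 had 9.29 CPM in replicate 3 with particles alone, where the others had 15.3 to 16 CPM. DNAJB2 had 9.99 CPM in replicate 4 at 54 °C, where the others had 12.8 to 13.2 CPM. DNAJC2 had 124 CPM in replicate 1 with particles alone, where the others had 97.5 to 102 CPM. Neither gene was called in any comparison.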

How the results depend on the processing

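The log2 fold changes of the 8 members in 7 comparisons were recomputed under the alternatives, giving 1064 values. Of these, 1048 kept their side of the threshold and, where called, their direction, 3 lost a call, 13 gained one and 0 called values changed sign. A value without an adjusted p was taken as not called, as for DNAJB4 with DESeq2 in the comparisons between temperatures. DNAJB1 kept its call at 46 °C under every alternative run, with 3.50 to 3.72 when single samples were left out. The number of members called higher at 46 °C against particles alone, 1 in the fit reported, was 2 with limma-voom, 3 with a term for replicates 3 and 4, and 1 to 2 with single samples left out. DNAJB4 was the added gene without replicate 1 of particles alone (1.90, adjusted p = 0.0341). The number called lower within replicates 3 and 4 was 1, in place of 2, at 50 °C and at 54 °C against 46 °C. At 54 °C against 46 °C it was 1 to 2 with single samples left out. It was 3, with DNAJB4 added, at 50 °C against 46 °C under total-count scaling (adjusted p = 0.0219), the term for replicates 3 and 4 (0.0330) and a fit of the compared groups alone (0.0250). At 54 °C against 46 °C it was 3, again with DNAJB4, under limma-voom (0.0135), within replicates 1 and 2 (0.0399) and in a fit of the compared groups alone (0.0212).

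The labels do not say whether samples of the same replicate number belong together. Same-numbered samples correlated weakly, but always above 0, at 0.022 to 0.066, in their deviations from the group means. For differently numbered samples the values ran from −0.08 to 0.072. With a replicate block 3 members were called higher at 46 °C against particles alone: DNAJB1, DNAJA1 (0.40, adjusted p = 0.0358) and DNAJB4 (1.56, adjusted p = 0.0238). DNAJB4 was then also called lower at 50 °C than at 46 °C (adjusted p = 0.0353). Genes called in all then numbered 269 in place of 117 at 46 °C, 333 in place of 148 at 50 °C and 46 in place of 15 at 54 °C, each against particles alone. They numbered 353 in place of 145 at 50 °C and 160 in place of 77 at 54 °C against 46 °C, and 68 in place of 24 at 54 °C against 50 °C. DESeq2 called 182, 250, 32, 265, 132 and 59 in the same order, and scaling by total counts called 277 at 50 °C against particles alone and 420 at 50 °C against 46 °C. Within replicates 3 and 4 the counts were 64 at 46 °C and 61 at 50 °C against particles alone, and 75 at 50 °C and 43 at 54 °C against 46 °C. Within replicates 1 and 2 they were 261 at 46 °C against particles alone, 236 at 50 °C and 215 at 54 °C against 46 °C. At 50 °C against particles alone, leaving out replicate 1 or 2 at 50 °C or replicate 2 of particles alone left 80, 94 or 84. At 54 °C against particles alone, 8 were called without replicate 1 or 3 at 54 °C, and 9 without replicate 2 at 54 °C or replicate 2 or 4 of particles alone. Without replicate 2 at 46 °C, 96 were called at 50 °C against 46 °C, and without replicate 3 at 54 °C, 49 at 54 °C against 46 °C. The causes were not tested. Counts of DNAJB4, 12 to 120 per library, limit what can be seen of it.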
